A study of Homo sapiens with 48 samples.

Results

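Aminoacyl-tRNA synthetases are the enzymes that join each amino acid to its own tRNA, the step that supplies charged tRNA to the ribosome. Human cells keep separate sets for protein synthesis in the cytosol and in mitochondria, encoded in most cases by different nuclear genes. In the symbols used here the first letter is the amino acid in its single-letter code, and the ending 1 (with EPRS1, FARSA and FARSB) or 2 marks the cytosolic or the mitochondrial enzyme. EPRS1 charges both glutamate and proline, FARSA and FARSB are the subunits of the phenylalanine enzyme, and the products of GARS1 and KARS1 are known to serve both compartments. Genes of this family were followed here in breast cancer cells given insulin-like growth factor I (IGF-I), a growth factor known to drive protein synthesis.

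Of 35 synthetase genes listed, 32 were measured among the 19775 genes that have a probe set with a single gene symbol. They were 17 of 19 cytosolic and 15 of 16 mitochondrial genes. MARS1, QARS1 and TARS2 lie on probe sets that carry several symbols and have no value here. The 32 genes have 67 probe sets between them, and the brightest probe set of a gene, by its mean over all arrays, stood for that gene.

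The cells were T47D-YA, a variant of the T47D breast cancer line that according to the study lacks IRS proteins, the adaptors that link the IGF-I receptor to signalling. All groups carry an introduced adaptor, so that clones #10 and #20 express IRS-1, clones #1 and #6 express IRS-2, and each isoform is represented by 2 stable clones. After 24 h in serum-free medium (SFM), cells received SFM with fibronectin (FN), alone as the control called SFM here or with IGF-I. RNA was taken 4 h or 24 h later. Each of the 16 groups held 3 Affymetrix HG-U133 Plus 2.0 arrays, 48 in all, and nothing in the labels says that the arrays came from separate cultures, so p-values measure the spread between arrays. Values are GC-RMA probe set summaries on a log2 scale, with array medians of 7.39 to 7.50, and the correlation between arrays within a group was 0.994 to 0.998 over probe sets. In what follows a gene rose or fell where the Benjamini-Hochberg adjusted p of limma over 54613 probe sets was under 0.05, and it was called where it also changed at least 1.5-fold. The arrays hold RNA of whole cultures, so a change in the share of cells and a change in RNA per cell cannot be told apart.

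Among markers of luminal breast epithelium, group means were 14.07 to 14.32 for KRT8, 13.49 to 14.15 for GATA3 and 9.76 to 10.80 for ESR1, all above the array medians. Those of TFF1, at 7.04 to 8.99, ran from below the array medians to above them. Of 6 markers of other cells, PTPRC (6.27 to 6.49) and KRT14 (5.71 to 6.09) lay below the array medians, and KRT5 (8.23 to 8.44), VIM (8.43 to 9.56), PECAM1 (9.16 to 9.42) and COL1A1 (9.49 to 10.82) above them. All 3 IRS1 probe sets read lower in SFM where IRS-1 was introduced, by 2.32, 0.35 and 0.17 on the log2 scale. The one that differed most had group means of 5.37 to 6.34 where IRS-1 was introduced and 7.75 to 8.87 where IRS-2 was. Of 2 IRS2 probe sets, the one that differed most read 7.07 to 7.51 in the former and 6.81 to 6.96 in the latter. These readings run opposite to the labels, while the other IRS2 probe set did not differ (0.02). Whether the introduced sequences hold the stretches that these probes read is not given in the sources used here. The labels were therefore not tested, and the clones are named as labelled throughout. Every direction between isoforms rests on those labels.

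At 24 h IGF-I raised cytosolic synthetase genes in both IRS-1 clones, led by YARS1, TARS1, GARS1 and AARS1. In IRS-1 #10 7 of 17 cytosolic genes rose, beside 4.39% of all genes in that comparison, and in IRS-1 #20 14 of 17 rose, beside 7.46%. The 7 shared by #10 and #20 were AARS1, CARS1, FARSB, GARS1, IARS1, TARS1 and YARS1, whereas 2.48% of all genes rose in both. In IRS-2 #1 3 of 17 rose (GARS1, IARS1 and YARS1), beside 2.93% of all genes, and in IRS-2 #6 none of the 17 rose in limma, beside 1.42%, with 1 higher at an unadjusted p under 0.05. No cytosolic gene rose in both IRS-2 clones, which 0.941% of all genes did. The rises in IRS-2 #1 were small, at 0.16 to 0.21 on the log2 scale, and their number was 0 to 2 when 1 of the array letters A, B or C was left out (0 without B and 0 without C).

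**Figure D1:**
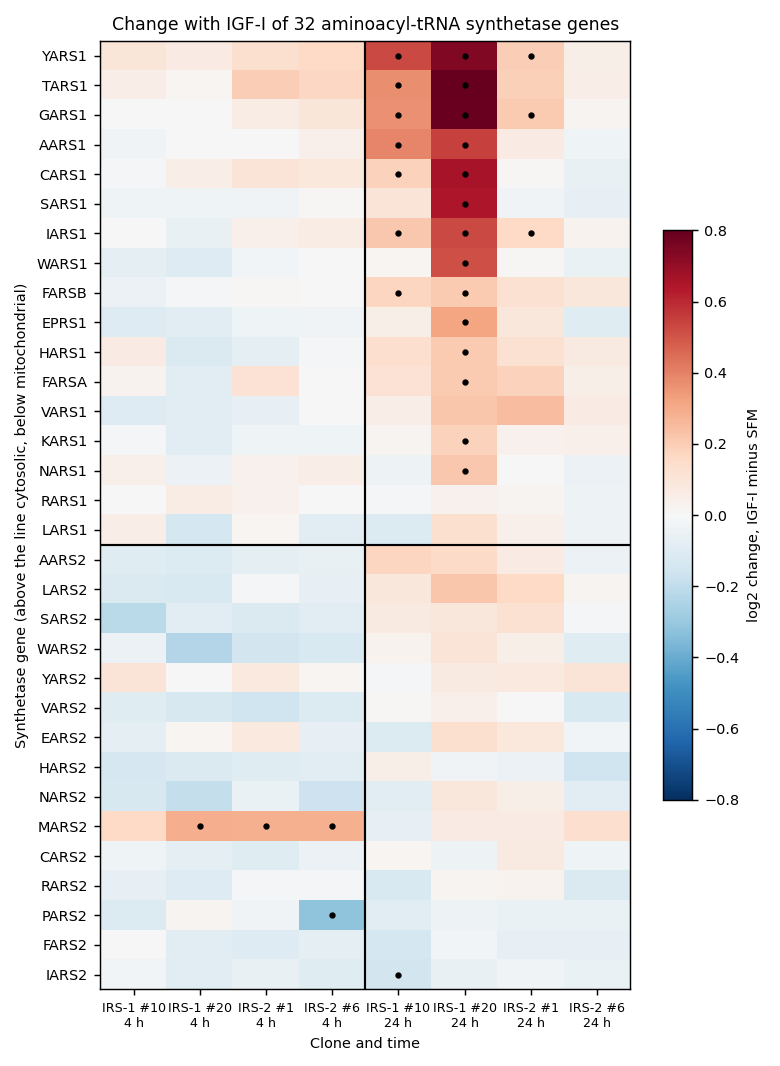
Log2 change with IGF-I against SFM of the 32 measured synthetase genes (rows) in each clone at 4 h and 24 h (columns), coloured from blue (lower) to red (higher), with a dot where the limma adjusted p was under 0.05. Most of the dots stand among the cytosolic genes at 24 h in the IRS-1 clones, 7 in #10 and 14 in #20, and MARS2 holds 3 of the 4 dots at 4 h.

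The median log2 change of the 17 cytosolic genes at 24 h was 0.11, 0.32, 0.09 and 0.02 in clones #10, #20, #1 and #6. Over all genes the medians were 0.01, 0.01, -0.01 and 0.00. In IRS-1 #20 the change lay above 0 in all 17 cytosolic genes, from 0.03 for RARS1 to 0.80 for TARS1. In IRS-1 #10 it lay above 0 in 14 of 17, from -0.11 for LARS1 to 0.53 for YARS1. No cytosolic gene fell at 24 h in any clone, with none lower at an unadjusted p under 0.05 either, although 6.65%, 2.95%, 1.62% and 4.34% of all genes fell in clones #10, #20, #1 and #6.

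YARS1, which charges tRNA with tyrosine, read 11.32, 11.28 and 11.35 with IGF-I at 24 h in IRS-1 #10 against 10.69, 10.90 and 10.78 in SFM. In IRS-1 #20 it read 11.66, 11.69 and 11.63 against 10.88, 10.84 and 11.03. The IGF-I and SFM arrays did not overlap in either clone, and the log2 changes were 0.53 (SE 0.053, adjusted p = 2.4e-10 in limma) and 0.74 (SE 0.053, adjusted p = 5.1e-15). In IRS-2 #1 YARS1 read 11.56, 11.63 and 11.65 against 11.43, 11.43 and 11.40. In IRS-2 #6 it read 11.43, 11.49 and 11.49 against 11.38, 11.47 and 11.42. The arrays were apart in IRS-2 #1, with a change of 0.20 (SE 0.053, adjusted p = 0.024), and overlapped in IRS-2 #6, with a change of 0.05. The SFM arrays of the IRS-2 clones lay above all SFM arrays of the IRS-1 clones.

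TARS1, the threonine enzyme, read 11.46, 11.44 and 11.45 with IGF-I in IRS-1 #10 against 10.95, 11.13 and 11.14 in SFM. In IRS-1 #20 its arrays read 11.60, 11.70 and 11.70 against 10.79, 10.86 and 10.97. Both clones were apart, by 0.37 (SE 0.060, adjusted p = 1.4e-05) and 0.80 (SE 0.060, adjusted p = 3.5e-14), the latter 1.74-fold. In IRS-2 #1 it read 11.49, 11.52 and 11.47 against 11.31, 11.28 and 11.30, and in IRS-2 #6 11.19, 11.35 and 11.39 against 11.29, 11.33 and 11.16. Its changes of 0.19 and 0.05 in the IRS-2 clones did not pass the test.

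GARS1, the glycine enzyme, read 12.32, 12.24 and 12.24 with IGF-I in IRS-1 #10 against 11.85, 11.94 and 11.90 in SFM. In IRS-1 #20 it read 12.58, 12.66 and 12.65 against 11.81, 11.80 and 11.91. Its rise was larger in #20, at 0.79 (SE 0.043, adjusted p = 2.9e-19), than in #10, at 0.37 (SE 0.043, adjusted p = 1.3e-08). In IRS-2 #1 its arrays at 12.36, 12.41 and 12.44 lay above SFM arrays at 12.18, 12.17 and 12.21, a rise of 0.21 (SE 0.043, adjusted p = 0.0016). In IRS-2 #6 they overlapped, at 12.32, 12.39 and 12.41 against 12.39, 12.34 and 12.33.

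AARS1, the alanine enzyme, read 12.27, 12.20 and 12.22 with IGF-I in IRS-1 #10 against 11.78, 11.95 and 11.80. In IRS-1 #20 it read 12.31, 12.47 and 12.43 against 11.83, 11.84 and 11.91. The arrays were apart in both clones, by 0.39 (SE 0.041, adjusted p = 1.4e-09) and 0.55 (SE 0.041, adjusted p = 4.9e-14). In the IRS-2 clones its changes were 0.06 and -0.03, and all SFM arrays there lay between 12.29 and 12.42, a range that overlaps that of the IGF-I arrays of IRS-1 #20.

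CARS1 and SARS1, the cysteine and serine enzymes, were called in IRS-1 #20 together with GARS1, TARS1 and YARS1. These 5 were the members called in any of the 8 comparisons of IGF-I with SFM, which 0.915% of all genes were, and 0.268% of all genes were called higher in IRS-1 #20 at 24 h. CARS1 read 11.79, 11.77 and 11.78 with IGF-I in IRS-1 #20 against 11.09, 11.11 and 11.17 in SFM, a change of 0.66 (SE 0.040, adjusted p = 1.8e-17). In IRS-1 #10 it read 11.85, 11.90 and 11.84 against 11.64, 11.71 and 11.69, a change of 0.18 (SE 0.040, adjusted p = 0.0014). CARS1 was thus apart in both clones. SARS1 read 11.66, 11.62 and 11.66 in IRS-1 #20 against 10.90, 11.00 and 11.12, a change of 0.64 (SE 0.052, adjusted p = 3.1e-13). In IRS-1 #10 its arrays overlapped, at 11.24, 11.14 and 11.17 against 10.98, 11.17 and 11.08, and its change of 0.10 did not pass the test. Neither gene rose in an IRS-2 clone.

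**Figure D2:**
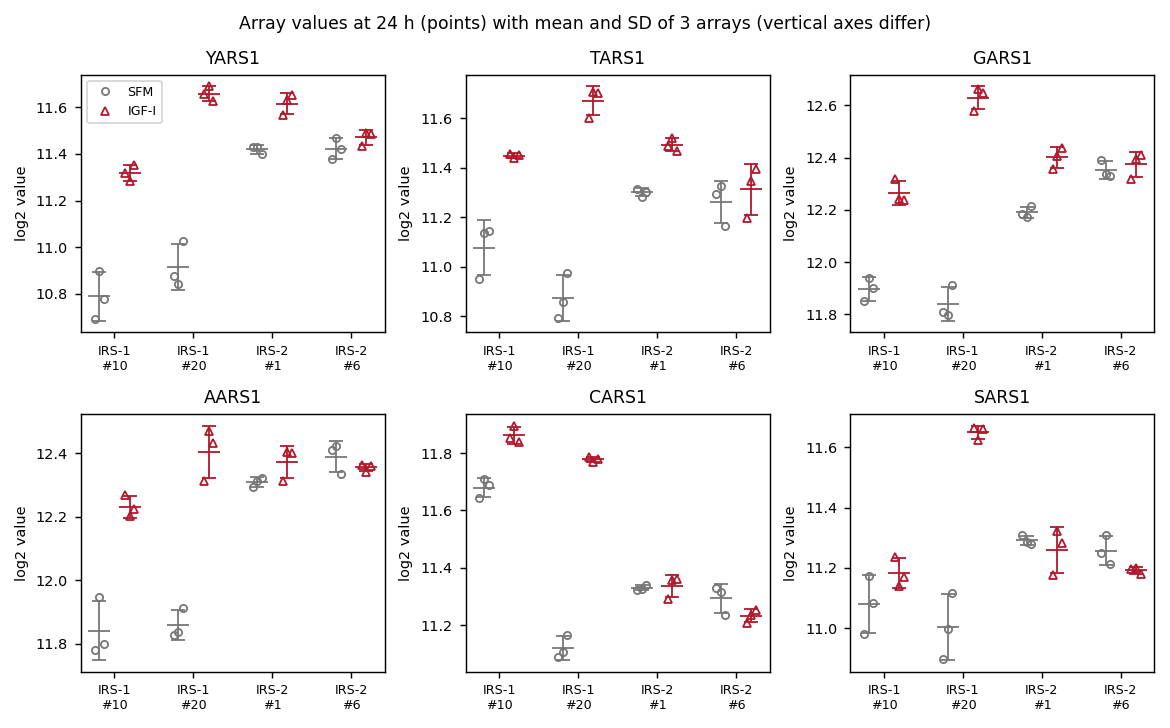
Log2 values of 6 cytosolic synthetase genes at 24 h on each array (points, grey circles SFM and red triangles IGF-I), with the mean and SD of the 3 arrays of each group, on vertical axes that differ between panels. In IRS-1 #20 the IGF-I arrays lie above the SFM arrays for all 6 genes, while SARS1 overlaps in IRS-1 #10, and in the IRS-2 clones the separations are small or absent.

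Among the other cytosolic genes, IARS1 (isoleucine) rose by 0.21, 0.53 and 0.16 in clones #10, #20 and #1. FARSB rose by 0.17 in IRS-1 #10 and 0.21 in IRS-1 #20. WARS1 (tryptophan, 0.51), EPRS1 (0.32), NARS1 (asparagine, 0.22), HARS1 (histidine, 0.21), FARSA (0.21) and KARS1 (lysine, 0.18) rose in IRS-1 #20 and not in #10. The rise of FARSA, with an adjusted p of 0.036, was lost in 9 of 13 other settings and reversed in 1. LARS1, RARS1 and VARS1 (leucine, arginine and valine) did not pass the test in any clone. The largest change of any member in IRS-2 #1 was that of VARS1, at 9.87, 10.00 and 10.08 with IGF-I against 9.75, 9.71 and 9.76, and its 0.25 had an adjusted p of 0.13. In IRS-2 #6 it was that of mitochondrial HARS2, at 10.31, 10.35 and 10.37 against 10.52, 10.56 and 10.43, with a change of -0.16 and an adjusted p of 0.18.

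None of the 15 mitochondrial synthetase genes rose at 24 h in limma in any clone. Of all genes 4.39%, 7.46%, 2.93% and 1.42% rose in clones #10, #20, #1 and #6, so none of 15 lies near those shares. At an unadjusted p under 0.05 1, 3, 1 and 1 of the 15 were higher in the same order. The median changes of the 15 were -0.02, 0.06, 0.05 and -0.05. IARS2 (isoleucine) fell in IRS-1 #10, from 12.16, 12.16 and 12.17 in SFM to 12.004, 12.06 and 11.99 with IGF-I, a change of -0.15 (SE 0.038, adjusted p = 0.0080). Without array letter A or C this fall was lost, and 6.65% of all genes fell in that clone. The 2 largest mean changes in the IRS-1 clones were those of AARS2 and LARS2. AARS2 (alanine) read 9.56, 9.42 and 9.51 against 9.30, 9.41 and 9.26 in IRS-1 #10 and 9.10, 9.22 and 9.16 against 8.82, 9.09 and 9.12 in IRS-1 #20. LARS2 (leucine) read 9.44, 9.49 and 9.42 against 9.25, 9.38 and 9.45 in IRS-1 #10 and 9.33, 9.51 and 9.43 against 9.06, 9.21 and 9.32 in IRS-1 #20. The changes of AARS2 (0.17 and 0.16) and of LARS2 (0.09 and 0.22) did not pass the test. The arrays of AARS2 were apart in #10 and overlapped in #20, and those of LARS2 overlapped in #10 and were narrowly apart in #20. In IRS-2 #1 AARS2 and LARS2 changed by 0.07 and 0.16, and in IRS-2 #6 by -0.05 and 0.02, with none past the test.

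Enzymes for the same amino acid in the cytosol and in mitochondria form 15 pairs here, with EPRS1 and FARS2 in 2 pairs each. The change at 24 h was larger for the cytosolic partner in 13 of 15 pairs in IRS-1 #10 and in 14 of 15 in IRS-1 #20, and in 8 and 9 of 15 in clones #1 and #6. In IRS-1 #20 CARS1 changed by 0.66 and CARS2 by -0.04, YARS1 by 0.74 and YARS2 by 0.07, and SARS1 by 0.64 and SARS2 by 0.09. The pair of LARS1 and LARS2 ran the other way in both IRS-1 clones, with 0.13 against 0.22 in #20. These counts are descriptions without a test, since all pairs come from the same arrays.

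**Figure D3:**
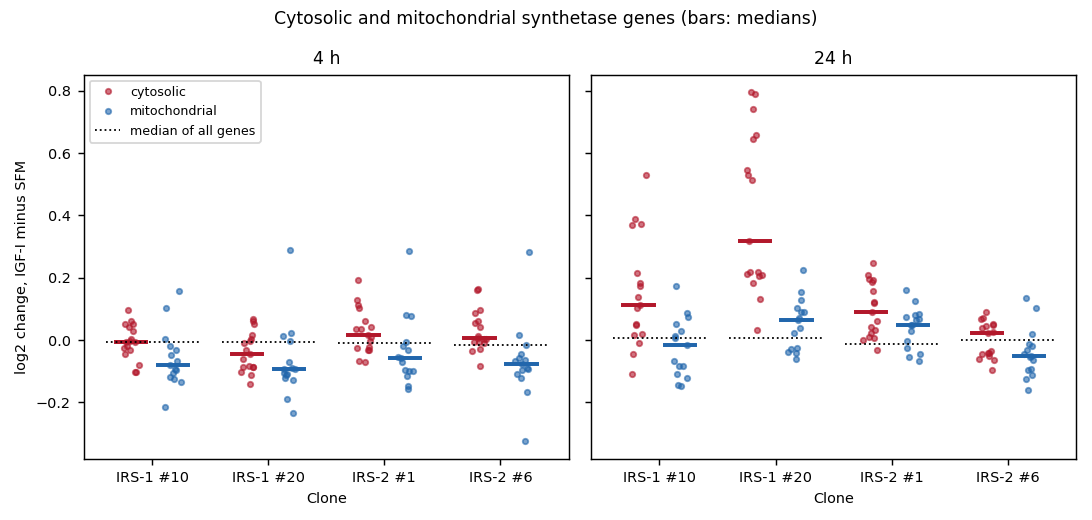
Log2 change with IGF-I of each cytosolic (red) and mitochondrial (blue) synthetase gene at 4 h and 24 h in the 4 clones, with bars at the medians and dotted lines at the median of all genes. At 24 h the cytosolic median lies at 0.11 and 0.32 in the IRS-1 clones and the mitochondrial median at -0.02 and 0.06.

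At 4 h no cytosolic synthetase gene rose or fell in limma in any of the 4 clones. At an unadjusted p under 0.05 none passed in #10, 3 were lower in #20, 3 were higher in #1 and 4 were higher in #6, and the methods' t-test gave 0 after Benjamini-Hochberg adjustment. Under quantile normalization 4 cytosolic genes rose at 4 h, TARS1 in both IRS-2 clones (0.18 and 0.17), YARS1 in IRS-2 #6 (0.17), and CARS1 (0.11) and RARS1 (0.12) in IRS-1 #20. Without array letter A, HARS1, KARS1, LARS1 and WARS1 fell in IRS-1 #20. Of all genes, 2.65%, 4.71%, 2.32% and 3.46% changed in either direction in clones #10, #20, #1 and #6 at that time. The mitochondrial methionine enzyme MARS2 was the member that rose at 4 h, in 3 clones. With IGF-I it read 8.98, 9.04 and 9.06 in IRS-1 #20 against 8.66, 8.81 and 8.74 in SFM. In IRS-2 #1 it read 8.88, 8.78 and 8.90 against 8.49, 8.63 and 8.59. In IRS-2 #6 it read 9.11, 9.01 and 9.16 against 8.73, 8.91 and 8.80. The groups were apart in each of these clones, and the changes were 0.29, 0.29 and 0.28 (SE 0.060, adjusted p = 0.0022, 0.0028 and 0.0024). In IRS-1 #10 it read 8.91, 8.86 and 8.88 against 8.75, 8.82 and 8.61, also apart, with a change of 0.16 that did not pass the test. The number of clones in which MARS2 rose was 1 without array letter A and 0 without letter C. PARS2, the mitochondrial proline enzyme, fell at 4 h in IRS-2 #6, from 8.87, 8.95 and 9.04 to 8.74, 8.46 and 8.69, a change of -0.32 (SE 0.059, adjusted p = 2.5e-04), beside 1.58% of all genes that fell there. This fall was lost without letter B.

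The response to IGF-I was compared between times within the clones of an isoform. In IRS-1 clones the response of 12 of 17 cytosolic genes was larger at 24 h than at 4 h, beside 6.32% of all genes, with differences of 0.15 for KARS1 to 0.58 for GARS1. Of the mitochondrial genes, AARS2 (0.27) and LARS2 (0.28) also had larger responses at 24 h, and MARS2 had a smaller one (-0.23), a direction that 2.24% of all genes shared. In IRS-2 clones no member's response differed between the times in limma, beside 4.26% of all genes in either direction, and at an unadjusted p under 0.05 4 cytosolic and 3 mitochondrial genes did.

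The isoforms were compared by the mean response of the IRS-1 clones minus that of the IRS-2 clones. At 24 h 8 of 17 cytosolic genes responded more in IRS-1 clones, beside 0.703% of all genes, and no mitochondrial gene did in limma, with 1 higher at an unadjusted p under 0.05. The differences were 0.51 for YARS1 (SE 0.053, adjusted p = 2.2e-09), 0.46 for TARS1, 0.46 for GARS1, 0.45 for AARS1, 0.45 for CARS1, 0.42 for SARS1, 0.29 for WARS1 and 0.28 for IARS1. SARS1 and WARS1 did not rise in IRS-1 #10 on their brightest probe sets, so these differences rest mainly on IRS-1 #20. For SARS1 a dimmer probe set did rise in IRS-1 #10 (0.39). Its brightest was higher there against the SFM arrays of 4 h (0.19). The difference of WARS1 was lost without letter A or B. At 4 h no member's response differed between isoforms in limma, beside 0.44% of all genes in either direction, and at an unadjusted p under 0.05 2 cytosolic genes were lower and 1 mitochondrial gene was higher. The errors come from arrays, so the spread between clones of an isoform is not part of these tests.

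The 2 IRS-1 clones also differed in the size of their response. At 24 h 7 cytosolic genes responded more in #20 than in #10, beside 1.16% of all genes, namely SARS1 (0.54), WARS1 (0.50), CARS1 (0.48), TARS1 (0.42), GARS1 (0.42), IARS1 (0.32) and NARS1 (0.26). Their number was 2 without array letter B and 4 without letter C. For AARS1 and YARS1 the difference between these clones, 0.16 and 0.21, did not pass the test. Between the IRS-2 clones no member's response at 24 h differed in limma, beside 0.00506% of all genes, with 3 cytosolic genes lower in #6 than in #1 at an unadjusted p under 0.05.

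The SFM arrays themselves moved between 4 h and 24 h. In IRS-1 #20 13 of 17 cytosolic and 10 of 15 mitochondrial synthetase genes fell in SFM, beside 16.6% of all genes, with median changes of -0.23 and -0.18. In IRS-1 #10 FARSB was the member that fell, beside 0.374% of all genes. In IRS-2 #1 5 cytosolic genes and WARS2 fell, beside 4.74%, and in IRS-2 #6 HARS1, KARS1 and RARS1 fell, beside 5.54%. No member rose in SFM in any clone, beside 437, 1816, 574 and 2087 of 19775 genes in clones #10, #20, #1 and #6. The SFM arrays of 24 h are the controls of the 24 h responses, so a lower control enters the responses of IRS-1 #20.

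For that reason the IGF-I arrays of 24 h were also set against the SFM arrays of 4 h of the same clone, a comparison added after the data were seen. In IRS-1 #10 8 of 17 cytosolic genes were then higher, beside 7.76% of all genes, with HARS1 and SARS1 added and FARSB lost, at 0.01 against 0.17 before. In IRS-1 #20 9 of 17 were higher, beside 12.1%, with AARS1 (0.61), CARS1 (0.53), GARS1 (0.62), SARS1 (0.62), TARS1 (0.56) and YARS1 (0.64) still above 0.5. Also in IRS-1 #20, 4 cytosolic genes (KARS1, LARS1, RARS1 and VARS1) and 6 mitochondrial genes were lower, beside 14.4%, and 6 cytosolic genes (FARSA, HARS1, KARS1, LARS1, RARS1 and VARS1) changed sign against their main response. The 7 genes higher in both IRS-1 clones were AARS1, CARS1, GARS1, IARS1, SARS1, TARS1 and YARS1, beside 3.52% of all genes. The rises of EPRS1, FARSA, HARS1, KARS1 and NARS1 in IRS-1 #20 were thus present against the SFM arrays of 24 h and not against those of 4 h. In IRS-2 #1 the rises of GARS1, IARS1 and YARS1 were lost, at 0.10, 0.04 and 0.14, and AARS1 was the cytosolic gene then higher (0.14), beside 5.44% of all genes. There 2 cytosolic genes were lower, beside 1154 of 19775 genes. In IRS-2 #6 no cytosolic gene was higher, beside 1677 of 19775 genes. In that clone 3 cytosolic and 2 mitochondrial genes were lower, beside 1279. Changes of sign were not limited to IRS-1 #20, with 2, 10 and 8 of 17 cytosolic genes in clones #10, #1 and #6.

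Against the SFM arrays of 4 h the difference between the IRS-1 clones was smaller for the 7 cytosolic genes that had responded more in #20. For AARS1 it was larger, at 0.29 against 0.16. In this comparison 4 cytosolic genes were higher in #20 than in #10, beside 2.84% of all genes, namely SARS1 (0.43), CARS1 (0.37), AARS1 (0.29) and GARS1 (0.27). WARS1 (0.20), TARS1 (0.12), IARS1 (0.10) and NARS1 (0.02) did not pass the test, and HARS1 (-0.23) and KARS1 (-0.17) were lower. Of the mitochondrial genes none was higher, and CARS2 (-0.29), HARS2 (-0.29) and IARS2 (-0.19) were lower. Between IGF-I arrays alone, 10 of 17 cytosolic genes stood higher at 24 h than at 4 h in the IRS-1 clones, beside 13.7% of all genes. HARS1 (0.07) and KARS1 (0.01) were then not higher, and LARS1 was lower (-0.15). Of the 15 mitochondrial genes, 4 were higher in the same comparison (AARS2, LARS2, SARS2 and WARS2) and 4 were lower (IARS2, MARS2, RARS2 and YARS2). The shares of all genes that were lower in the comparisons of this paragraph are not given here.

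**Figure D4:**
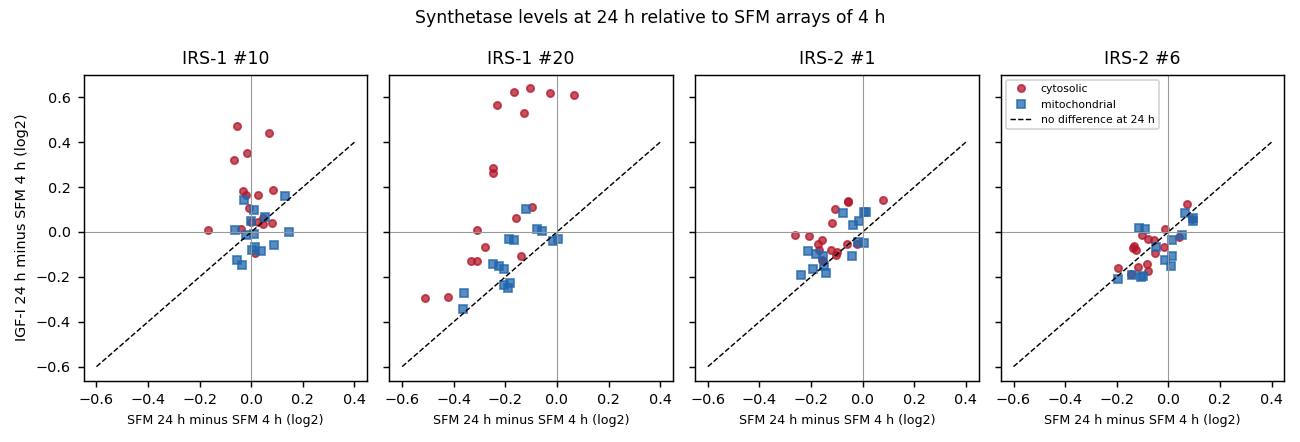
For each synthetase gene, the log2 level with IGF-I at 24 h relative to the SFM arrays of 4 h (vertical) against the change of the SFM arrays from 4 h to 24 h (horizontal), in the 4 clones. On the dashed line IGF-I and SFM are equal at 24 h. In IRS-1 #20 most points lie left of 0 and a group of cytosolic genes stands between 0.5 and 0.7 on the vertical axis.

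In SFM the synthetase genes stood lower in IRS-1 than in IRS-2 clones. Over the SFM arrays of both times 15 of 17 cytosolic and 11 of 15 mitochondrial genes were lower in IRS-1 clones, beside 40.8% of all genes, and 1 of each class was higher (CARS1 by 0.09 and YARS2 by 0.15), beside 23.9%. The means of both IRS-1 clones lay below those of both IRS-2 clones for 14 of 17 cytosolic and 9 of 15 mitochondrial genes, as they did for 36.2% of all genes. YARS1 had SFM means of 10.82 and 10.97 in IRS-1 #10 and #20 against 11.45 and 11.46 in IRS-2 #1 and #6, and KARS1 12.95 and 12.71 against 13.30 and 13.38. Among mitochondrial genes LARS2 read 9.36 and 9.26 against 9.68 and 9.68. With 2 clones for each isoform, a difference between isoforms and a difference between clones cannot be told apart here, and the same SFM arrays enter the responses above.

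**Figure D5:**
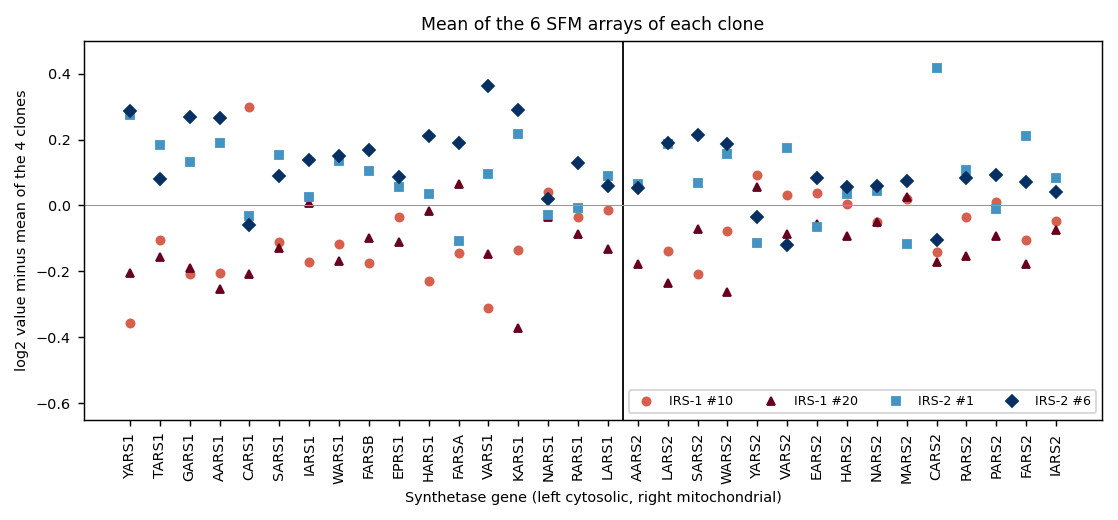
Mean log2 value of the 6 SFM arrays of each clone, minus the mean of the 4 clones, for cytosolic (left) and mitochondrial (right) synthetase genes. The IRS-1 clones (red) lie below the IRS-2 clones (blue) for 14 of 17 cytosolic and 9 of 15 mitochondrial genes, with CARS1 and YARS2 among the exceptions.

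Genes for amino acid supply are known to be induced together with synthetases through the transcription factor ATF4, which binds C/EBP-ATF composite elements. The core TGATGNAA of such elements, read on either strand as TGATGNAA or TTNCATCA, was searched in RefSeq promoter windows of GRCh38.p14, from 250 bases before to 50 after each start. It is present in 1270 of 35116 windows (3.62%) and in 4.46% of 27305 genes with a window. Of the measured members, 14 cytosolic and 13 mitochondrial genes have a window, and 6 and 1 of them hold a match. The matches are shown with 28 bases on either side, read on the gene's strand, with the match in capitals. All 6 cytosolic genes with a match rose in IRS-1 #20 at 24 h, as did 7 of the 8 with a window and no match. YARS2 is the mitochondrial gene that holds a match.
AARS1, chr16:70289658-70289721, minus strand, match from position -187: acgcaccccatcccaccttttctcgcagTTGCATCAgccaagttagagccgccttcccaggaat
CARS1, chr11:3057390-3057453, minus strand, match from position -2: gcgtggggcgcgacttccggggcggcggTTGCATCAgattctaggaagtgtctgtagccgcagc
GARS1, chr7:30594817-30594880, plus strand, match from position -33: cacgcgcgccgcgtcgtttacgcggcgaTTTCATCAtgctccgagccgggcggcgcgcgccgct
IARS1, chr9:92293675-92293738, minus strand, match from position -13: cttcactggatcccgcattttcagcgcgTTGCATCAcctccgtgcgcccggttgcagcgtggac
NARS1, chr18:57621787-57621850, minus strand, match from position 15: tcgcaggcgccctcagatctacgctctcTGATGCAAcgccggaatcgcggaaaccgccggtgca
TARS1, chr5:33440939-33441002, plus strand, match from position 3: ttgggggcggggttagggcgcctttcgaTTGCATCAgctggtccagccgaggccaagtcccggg
YARS2, chr12:32756059-32756122, minus strand, match from position -197: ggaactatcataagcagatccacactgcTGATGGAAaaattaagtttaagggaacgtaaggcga
Positions are counted from the start of the RefSeq transcript, where -1 is the base before it, and for CARS1, GARS1 and TARS1 the match is in 1 of 2 windows.

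The 6 cytosolic genes with a match (AARS1, CARS1, GARS1, IARS1, NARS1 and TARS1) had a median change of 0.29 in IRS-1 #10 and 0.60 in IRS-1 #20 at 24 h, and 5 and 6 of them rose. The 8 cytosolic genes with a window and no match had medians of 0.08 and 0.21, and 1 and 7 of them rose. Among the latter SARS1 and WARS1 rose by 0.64 and 0.51 in IRS-1 #20. In IRS-2 #1 the medians with and without a match were 0.11 and 0.06, and 2 and 0 of the genes rose. In IRS-2 #6 the medians were -0.01 and 0.00, and no gene of either group rose. YARS1, LARS1, VARS1, AARS2 and VARS2 were not searched. A match is a description of these letters, not a binding site, and no test was made.

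Genes around the synthetases were counted from lists chosen with earlier results of these data known. Of 29 measured amino acid response genes, at 24 h clone #10 had 21 higher and 2 lower past the test, #20 25 higher, #1 8 higher, and #6 2 higher and 1 lower, against the shares of all genes higher at 24 h given above. The largest changes were those of ASNS, the asparagine synthetase that makes the amino acid, at 0.96 and 1.83 in IRS-1 #10 and #20. PSAT1, of serine synthesis, rose in all 4 clones, by 0.95 and 1.21 in the IRS-1 clones and 0.34 and 0.27 in IRS-2 #1 and #6. The amino acid transporter SLC7A5 also rose in all 4, by 0.85, 0.97, 0.52 and 0.29 in the same order. The transcription factor ATF4 rose by 0.27 and 0.78 in the IRS-1 clones, and its changes of 0.11 and -0.03 in the IRS-2 clones did not pass the test. The matched core is in the windows of 8 of the 24 response genes that have a window. At 4 h 8, 4, 7 and 12 of these genes rose in clones #10, #20, #1 and #6, beside 1.18%, 1.17%, 1.53% and 1.89% of all genes, and 1 fell in each of #10 and #20, beside 1.47% and 3.54%.

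XPOT, the export receptor that carries tRNA from the nucleus, rose at 24 h in all 4 clones, by 0.29, 0.71, 0.20 and 0.17. Of the other 4 measured elongation and export factors, EIF5A rose in IRS-1 #20 (0.29), and EEF1A1, EEF1D and EEF2 did not pass the test at 24 h in any clone. A list of 12 genes of cytosolic initiation holds initiation factors and the repressor EIF4EBP1. Of these 12, 4, 6, 2 and 1 rose at 24 h in clones #10, #20, #1 and #6, beside 4.39%, 7.46%, 2.93% and 1.42% of all genes, and none fell. EIF2S2, a subunit of the factor that brings initiator tRNA to the ribosome, rose by 0.22, 0.44 and 0.18 in the first 3 of these clones. EIF4EBP1, the repressor of eIF4E, rose by 0.29 and 0.43, and EIF2B3 by 0.30 and 0.23, in the IRS-1 clones. AIMP1, the one scaffold of the multisynthetase complex with a value, rose in IRS-1 #20 (0.16).

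Of 9 measured factors of mitochondrial translation, MRRF, the ribosome recycling factor, rose in IRS-1 #20 at 24 h (0.21), beside 7.46% of all genes. None of the others rose or fell at that time. Of the 3 subunits of the amidotransferase that makes glutaminyl-tRNA in mitochondria, QRSL1 rose in IRS-1 #20 (0.26), beside the same share. GATB fell in IRS-2 #6, by 0.23 on the log2 scale, beside 4.34% of all genes. With so few genes these counts cannot be told from the shares of all genes. The medians of the 9 factors at 24 h were -0.08, 0.09, 0.05 and -0.01 in clones #10, #20, #1 and #6, close to the medians of the mitochondrial synthetase genes.

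Other probe sets of the same genes were compared with the brightest. Of 17 further probe sets of 11 cytosolic genes, 10 rose in IRS-1 #20 and 3 rose in IRS-1 #10 at 24 h. Shares over all probe sets are not given here. By their brightest probe sets, 7.46% and 4.39% of all genes rose in these clones. The 3 further probe sets of CARS1 rose by 0.29 to 0.80 in IRS-1 #20, both further sets of EPRS1 by 0.36 and 0.37, and the further set of WARS1 by 0.51. SARS1 rose by 0.39 in IRS-1 #10 and 1.04 in IRS-1 #20 on its dimmer probe set, whereas its brightest did not pass the test in IRS-1 #10. Dim second probe sets of TARS1, YARS1 and FARSB did not rise in either clone. For LARS1, a probe set fell in IRS-1 #10 (-0.23) and another rose in IRS-1 #20 (0.19). Of 18 further probe sets of mitochondrial genes, that of LARS2 (0.22) and 1 of WARS2 (0.31) rose in IRS-1 #20, beside the same 7.46% of all genes. None of the 18 rose in IRS-1 #10.

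As a measure of RNA quality, the 3′ minus 5′ difference of the actin control probe sets was lower with IGF-I than in SFM in each of the 8 comparisons, by 0.01 to 0.05 log2 units. In clone #20 at 24 h it was 0.160 against 0.190. In SFM it was 0.19 to 0.25 in the IRS-1 clones and 0.11 to 0.16 in the IRS-2 clones. Its part in the synthetase changes, and in the lower SFM levels of the IRS-1 clones, was not tested.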

How the data were processed

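The files used here hold a series matrix of 48 arrays. Per the labels total RNA was purified with either of 2 kits, without saying which kit served which sample, and labelled as cRNA with biotin. As deposited by the authors, values are probe set summaries on a log2 scale made by GC-RMA, which the submitters' processing notes name without a version, and they run from 3.13 to 15.35. The methods describe a normalization to untreated cells that these values do not hold. No raw intensities were used, so signal over background is unknown. The table has 54675 probe sets, of which the 62 Affymetrix controls were dropped. In the platform's annotation 41091 of the others carry 1 symbol, 1801 several and 11721 none. Member symbols were matched as listed, and 0 probe sets carried an older form.

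A limma model (version 3.58.1, in R 4.3.3) that gives the 16 groups their own means was fitted to 54613 probe sets, with an intensity trend in the variances and 32 residual degrees of freedom. It was tested on simulated data. Differences between isoforms, times and clones were contrasts of this model. The 3 arrays of a group limit the precision. Members and gene lists were chosen with earlier results of these data known. Values per array are given for members called in any comparison, for the 4 cytosolic and 3 mitochondrial members with the largest mean change in the IRS-1 clones at 24 h and for the largest in each IRS-2 clone. MARS2 and PARS2 were added after their values were seen. Lists name up to 3 members by the same mean change. ATF4, EEF1A1 and EEF1D were added after their values were seen. Alternatives were quantile normalization, median centring, means of a gene's probe sets, a filter on dim probe sets (kept at a log2 value of 5 or more on 3 arrays), the 6 arrays of a comparison alone, variances without trend, the methods' t-test, a replicate block, and each array letter left out in turn. IGF-I at 24 h against SFM at 4 h was added after seeing the data. Tables were made with pandas 2.3.3 and numpy 2.4.6 in Python 3.11.15, and figures with matplotlib 3.10.9.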

Additional observations from a re-analysis of the deposited data

Results flagged for a closer look

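Differences between groups under the same contrast passed the limma test for 3 sets of members. Between isoforms at 24 h, IRS-1 minus IRS-2 clones, the response differed by 0.51 for YARS1, 0.46 for GARS1, 0.46 for TARS1, 0.45 for AARS1, 0.45 for CARS1, 0.42 for SARS1, 0.29 for WARS1 and 0.28 for IARS1 on the log2 scale. Between the IRS-1 clones at 24 h, #20 minus #10, it differed by 0.54 for SARS1, 0.50 for WARS1, 0.48 for CARS1, 0.42 for TARS1, 0.42 for GARS1, 0.32 for IARS1 and 0.26 for NARS1. The SFM arrays of IRS-1 #20 that serve as controls at 24 h were lower than at 4 h for 13 of 17 cytosolic genes, and against the SFM arrays of 4 h the differences were 0.43 for SARS1, 0.37 for CARS1 and 0.27 for GARS1, past the test, and 0.20 for WARS1, 0.12 for TARS1, 0.10 for IARS1 and 0.02 for NARS1, not past it.

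Between times in the IRS-1 clones, the response at 24 h minus that at 4 h was 0.58 for GARS1, 0.55 for YARS1, 0.55 for TARS1, 0.48 for AARS1, 0.41 for SARS1, 0.41 for IARS1, 0.40 for CARS1 and 0.36 for WARS1. It was 0.28 for EPRS1, 0.22 for FARSB, 0.20 for HARS1 and 0.15 for KARS1. Among mitochondrial members it was 0.28 for LARS2, 0.27 for AARS2 and -0.23 for MARS2.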

How the results depend on the processing

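The count of 7 cytosolic genes higher in both IRS-1 clones at 24 h was 6 to 10 in every limma alternative, the 8 with a larger response in IRS-1 clones were 7 to 11, and the 12 with a larger response at 24 h than at 4 h were 9 to 13. At the thresholds of the methods' t-test (unadjusted p under 0.05 and 1.5-fold) cytosolic counts at 24 h were 0 in #10, 5 in #20, 0 in both of these and 0 in #1, mitochondrial genes were 0 and MARS2 rose in 0 clones at 4 h. After Benjamini-Hochberg adjustment the methods' t-test gave 0 in IRS-1 #10, 3 in IRS-1 #20 (2 of them at least 1.5-fold), 0 in both, 0 in IRS-2 #1, 0 mitochondrial genes and 0 clones for MARS2. Quantile normalization gave 3 mitochondrial genes changed at 24 h (1 in the main result), 4 cytosolic genes changed at 4 h (0) and a cytosolic median in IRS-2 #1 of 0.0638 (0.0905). Median centring gave 1 cytosolic gene higher in IRS-2 #1 (3) and a median in IRS-2 #6 of 0.00415 (0.0219). Means of a gene's probe sets gave 2 cytosolic genes at least 1.5-fold higher in IRS-1 #20 (5), 3 mitochondrial genes changed and a median in IRS-2 #1 of 0.12. The fit to the 6 arrays of a comparison gave 8 genes in IRS-2 #1, 2 mitochondrial genes, 1 cytosolic gene at 4 h and 1 clone for MARS2, and variances without trend gave 1 gene in IRS-2 #1. With array letters as a replicate block, IRS-2 #1 had 1 cytosolic gene higher, the other counts stayed within 1.5 times, and the calls of FARSA in IRS-1 #20 and of IARS1 and YARS1 in IRS-2 #1 were lost. The letters were not taken to pair arrays, since deviations of same-letter arrays correlated at -0.44 to 0.30 and above 0.1 in 3 of 24 pairs. Leaving out 1 letter gave 2 to 7 cytosolic genes with a larger response in #20 than in #10 (7), 0 to 2 genes in IRS-2 #1, 0 to 1 mitochondrial genes at 24 h, 0 to 4 cytosolic genes at 4 h, 0 to 3 clones for MARS2, cytosolic medians of 0.0442 to 0.179 in #10, 0.216 to 0.376 in #20 and -0.0393 to 0.0276 in #6, and a mitochondrial median of 0.0244 to 0.0715 in #1. Of 37 calls of single genes, 7, 10 and 9 were lost without letter A, B and C, among them CARS1 in #10 and EPRS1, HARS1 and KARS1 in #20 (without B) and FARSB in #10 (without A or C), and none changed sign. IGF-I at 24 h against SFM at 4 h gave 9 cytosolic genes in #20, 1 in #1 (AARS1, with none of the 3 of the main result kept), 4 with a larger response in #20 than in #10, 7 mitochondrial genes changed in any clone, cytosolic medians of 0.113 in #20, -0.0516 in #1 and -0.0673 in #6, mitochondrial medians of -0.143 in #20 and -0.0859 in #1, and reversed FARSA (-0.128), HARS1 (-0.0661) and KARS1 (-0.128) in IRS-1 #20. Leaving out a letter leaves fewer arrays, and the cause of the other moves was not tested. The filter on dim probe sets changed no call.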

Other observations

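Some cytosolic synthetases are known to be held together in the multisynthetase complex, and 5 of its members have values here (EPRS1, IARS1, KARS1, LARS1 and RARS1). This grouping was made after the values were seen and has no test. At 24 h 1 of the 5 rose in IRS-1 #10 and 3 of the 5 in IRS-1 #20, with median log2 changes of 0.02 and 0.18. Of the other 12 cytosolic genes, 6 and 11 rose, with medians of 0.16 and 0.53. IARS1 was the member of the complex with the largest change, at 0.21 and 0.53 in IRS-1 #10 and #20, and LARS1 and RARS1 did not pass the test in either clone.

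HARS1 and HARS2 lie on opposite strands with starts close together, and their RefSeq promoter windows share 184 bases. At 24 h in IRS-1 #20 HARS1 rose by 0.21, and the change of HARS2 was -0.03 and did not pass the test. The rise of HARS1 was lost without array letter B. Against the SFM arrays of 4 h HARS1 was not higher (-0.07) and HARS2 was lower (-0.24), beside 14.4% of all genes. In IRS-1 #10 the change of HARS1, 0.14, did not pass the test. The difference between the 2 genes was not tested.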
